A study of Mus musculus with 18 samples.

Results

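Integrin genes that macrophages are known to transcribe were followed across the 6 groups of the study. The 10 genes were chosen by name: Itgb2, Itgam, Itgax, Itgal, Itga4, Itga5, Itgav, Itgb1, Itgb3 and Itgb5. Earlier results of these data were known when they were chosen, so shares of all tested genes set beside their counts are a description only. All 10 were among the 55385 genes listed, and all 10 were among the 14979 genes that had at least 10 counts in at least 2 libraries and were tested. The cells were bone marrow-derived macrophages (BMDM) of 12-week-old female C57BL/6J mice, grown with L-929 culture supernatant, and the libraries came from 3 mice. BMDM received vehicle (Veh, 0.1% DMSO), 250 µM of the choline uptake inhibitor hemicholinium-3 (HC3) or 5 µM of the choline kinase inhibitor RSM-932a (RSM) for 24 h. They then spent another 24 h either naïve (M[0]) or with 20 ng/mL interleukin-4 (M[IL-4]), which gave 3 poly-A-selected RNA-seq libraries in each of Veh M[0], HC3 M[0], RSM M[0], Veh M[IL-4], HC3 M[IL-4] and RSM M[IL-4]. Nothing in the labels ties a replicate number to a mouse, so p-values measure the spread between these libraries.

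Integrins are adhesion receptors built of an alpha and a beta chain, which together decide what the receptor binds. The beta-2 chain (Itgb2, CD18) is restricted to leukocytes and pairs with alpha-M (Itgam, CD11b), alpha-X (Itgax, CD11c) or alpha-L (Itgal, CD11a) to bind intercellular adhesion molecules, fibrinogen and complement fragment iC3b. The beta-1 chain pairs with alpha-4 and alpha-5 to bind vascular cell adhesion molecule and fibronectin, and alpha-v pairs with beta-3 or beta-5 to bind vitronectin, osteopontin and the bridging proteins of apoptotic cell uptake.

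Itgam and Itgax are neighbours on chromosome 7, with their annotated bodies 11055 bp apart, but gave different patterns in these libraries, and for that reason the sequence just before the start of each is shown. The set of RefSeq (GRCm38.p6) upstream windows used here held 250 bases for 7 of the 10 genes. It held none for Itgb2, Itgal and Itgb3. Capitals mark matches, on either strand, to letters searched for: GAGGAA (the core of PU.1 sites), TGTGGT and TGCGGT (RUNX), TTCNNNNGAA (the spacing preferred by STAT6, the factor that IL-4 signalling activates), TTCNNNGAA (other STATs), TGANTCA (AP-1), TGATGNAA (ATF4 with CHOP) and GGGCGG (SP1).
Itgam, chr7:128062390-128062639, plus strand: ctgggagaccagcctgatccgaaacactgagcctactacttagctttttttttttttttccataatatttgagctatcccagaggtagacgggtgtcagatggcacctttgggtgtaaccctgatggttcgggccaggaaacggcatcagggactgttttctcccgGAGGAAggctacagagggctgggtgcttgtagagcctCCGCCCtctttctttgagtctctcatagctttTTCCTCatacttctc
Itgax, chr7:128129300-128129549, plus strand: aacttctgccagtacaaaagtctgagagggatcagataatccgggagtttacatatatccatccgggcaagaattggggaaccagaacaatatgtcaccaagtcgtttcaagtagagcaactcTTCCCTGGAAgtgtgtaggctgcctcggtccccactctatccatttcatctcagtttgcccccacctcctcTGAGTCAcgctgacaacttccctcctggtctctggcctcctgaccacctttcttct
The Itgam window held GAGGAA at -84 and, on the minus strand, at -15, besides an SP1 box at -47, with positions counted back from the start site and giving the match's most distant base. The Itgax window held TTCCCTGGAA at -127 and the AP-1 match TGAGTCA at -56, and no GAGGAA. Among 32851 mouse promoter windows of the same length, 23.3% held GAGGAA, 5.85% TTCNNNNGAA, 6.75% TGANTCA and 32.7% GGGCGG. TTCNNNNGAA and TGANTCA were found in no other of the 7 windows. Itgb2, Itgal and Itgb3 could not be searched, and IL-4 also raised Itgb2 and Itgb3 with Veh. GAGGAA was also found before Itga5, Itgav and Itgb1, GGGCGG before Itga4, Itga5, Itgb1 and Itgb5, and TGTGGT (14% of windows) before Itga4. None of the 7 held TGCGGT, TTCNNNGAA or TGATGNAA (5.1%, 7.02% and 3.45% of all windows), and no 2 matches overlapped. A match of letters is a description of the sequence, not a binding site.

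The libraries held between 17457796 and 19522255 counts (median 18549049), so that 3 counts corresponded to 0.154 to 0.172 CPM, counts scaled to a common library size. All 12 macrophage markers were detected in every group, with Csf1r between 1504 to 1545 CPM in HC3 M[0] and 3888 to 4007 CPM in Veh M[0]. Their summed level was 25690 to 26760 CPM in M[0] with Veh, 10010 to 11000 with HC3 and 17550 to 18850 with RSM. It was 16150 to 16930, 8937 to 10070 and 12840 to 15340 CPM in the matching M[IL-4] groups. The summed level of 10 stromal or fibroblast markers (2 of them at 0 in Veh M[0], 1 in each other group) was 591 to 1013 CPM in M[0] with Veh, 1418 to 1906 with HC3 and 1111 to 1573 with RSM, and 327 to 753, 654 to 1207 and 596 to 1143 CPM with IL-4. Of the 12 macrophage markers, all 12 fell under HC3 in M[0] and 11 under RSM. In M[IL-4] 11 fell and 1 rose under HC3, and 4 fell and 2 rose under RSM (adjusted p under 0.05 by edgeR, passed by 44.1%, 41.1%, 38.8% and 38.6% of all tested genes in these 4 comparisons). Of 8 stromal markers tested, 4 rose with HC3 and 2 rose and 1 fell with RSM in M[0], and 3 rose with HC3 and 2 rose and 1 fell with RSM in M[IL-4]. The part of either list in the integrin values was not tested. In bulk RNA, fewer cells of a type and less RNA per cell cannot be told apart. Of the neutrophil markers, S100a9, Elane and Retnlg were at 0 in every library and Ly6g had 2 counts in all 18, but the list of 12 summed to 5.26 to 56.9 CPM, highest in RSM M[0], where Mmp8 made up 43.4 to 54.4 CPM. The B-cell, T- or NK-cell and mast-cell or basophil lists each summed to at most 2.05 CPM in any library. The megakaryocyte or platelet list summed to 4.68 to 9.45 CPM and the endothelial list to 14.3 to 84.7 CPM. In the endothelial list Kdr had group means of 7.71 to 76.7 CPM and Pecam1 of 0.298 to 8.29. Cdh5, Tek and Emcn held at most 0.705 CPM in any library. Mitochondrially encoded genes took 1.68% to 2.2% of counts with Veh, 2.5% to 3.45% with HC3 and 0.665% to 0.829% with RSM, and the part of this difference was not tested either.

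Levels are given as CPM when 1 gene is compared between groups and as CPM per kilobase of exon (CPM per kb) when genes are compared with each other. In Veh M[0], on full exon lengths, the beta chains Itgb2 (280.0 ± 15.4 CPM per kb, SD, n = 3), Itgb1 (231 ± 12.7) and Itgb5 (151 ± 12.1) stood highest. Of the alpha chains, Itgam was at 49.6 ± 2.31, Itga5 at 43.4 ± 1.91, Itgav at 28.9 ± 2.47, Itgal at 25.4 ± 3.07, Itga4 at 13.2 ± 1.51 and Itgax at 12.7 ± 0.679 CPM per kb. Itgb3 was lowest of the 10 in Veh M[0], at 2.44 ± 0.404 CPM per kb. The libraries of neighbours in this order overlapped for Itgav with Itgal and for Itga4 with Itgax. The order was not kept in the other groups: Itgax came next after Itgb2 and Itgb1 in Veh M[IL-4], at 231 ± 29.8 CPM per kb, with libraries overlapping those of Itgb1, and last in RSM M[0] at 0.449 ± 0.156, while Itgb1 ranked above Itgb2 in HC3 M[0] and RSM M[IL-4]. A limit applied to Itgam, because 68.7% of its exon length (3450 of 5024 bp) lies within exons of Gm49368, an overlapping gene on the same strand that held 0 to 4 counts per library. How the counting treated reads on shared exons is not stated in the sources used here. Counts this low in Gm49368 show that such reads were neither counted for both genes nor split evenly. If they were left out for both, only 1574 bp of Itgam could be counted. The level of Itgam beside other genes and its place in the order above would then be too low. The plot of all libraries shows each gene on its own linear scale.

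**Figure D1:**
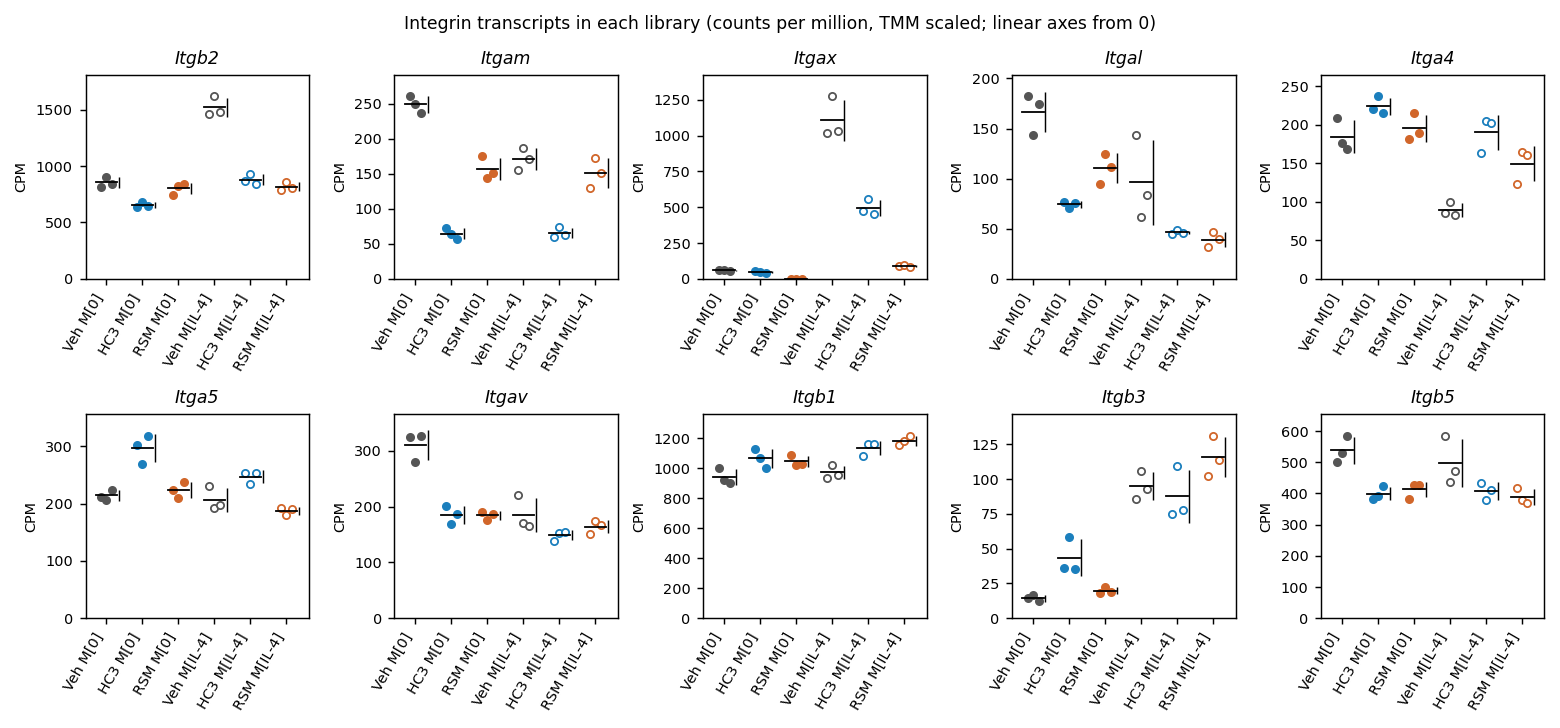
CPM (y axes, linear from 0) of the 10 integrin genes in the 6 groups (x axes), with 1 point per library, the mean as a horizontal line and the SD (n = 3) as a vertical bar; filled points are M[0] and open points M[IL-4]. Itgax rose from 57.2 to 63.0 CPM in Veh M[0] to 1021 to 1274 CPM in Veh M[IL-4] and stood at 1.39 to 2.88 CPM in RSM M[0].

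Each inhibitor, given at 1 dose, was compared with Veh at the same polarization state to ask which integrin transcripts changed with it. Effects of either compound beyond choline uptake or choline kinase were not tested. A gene counted as changed at least 2-fold when edgeR's quasi-likelihood test gave a Benjamini-Hochberg adjusted p under 0.05 together with a log2 fold change of 1 or more, up or down. In M[0], HC3 changed 3 of the 10 integrin genes in this way against 12% of all tested genes. Itgam and Itgal were lower (6.11% of tested genes were) and Itgb3 was higher (5.93%). RSM changed 1 in M[0], with Itgax lower, against 11.6% of tested genes (6.51% lower). In M[IL-4], HC3 changed 4 against 10.3%, with Itgam, Itgax and Itgal lower (5.53%) and Itga4 higher (4.72%). There RSM changed 2 against 11%, with Itgax and Itgal lower (6%). When only the adjusted p was asked for, 3 rose (background 22.6%) and 5 fell (21.5%) with HC3 in M[0], where 44.1% of tested genes passed. With RSM in M[0] none rose and 5 fell (20.7%, 41.1% in all). With HC3 in M[IL-4] 3 rose (18.9%) and 6 fell (19.9%, 38.8% in all), and with RSM 2 rose (20.1%) and 4 fell (18.5%, 38.6% in all). These counts come from a fit without the replicate number as a block. Values that passed only with this block within each polarization state are given with each gene below. Itgb1 and Itgb3, both higher with RSM in M[0], are among them. The 3 treated and 3 Veh libraries did not overlap for 10, 7, 9 and 6 of the 10 genes in these comparisons, against 52.2%, 51.5%, 45.9% and 46.6% of all tested genes. The median log2 fold change of the 10 genes was -0.33, -0.24, -0.30 and -0.18, beside 0.023, 0.0053, 0.0063 and 0.019 over all tested genes. The HC3 and RSM comparisons at one polarization state share their 3 Veh libraries.

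**Figure D2:**
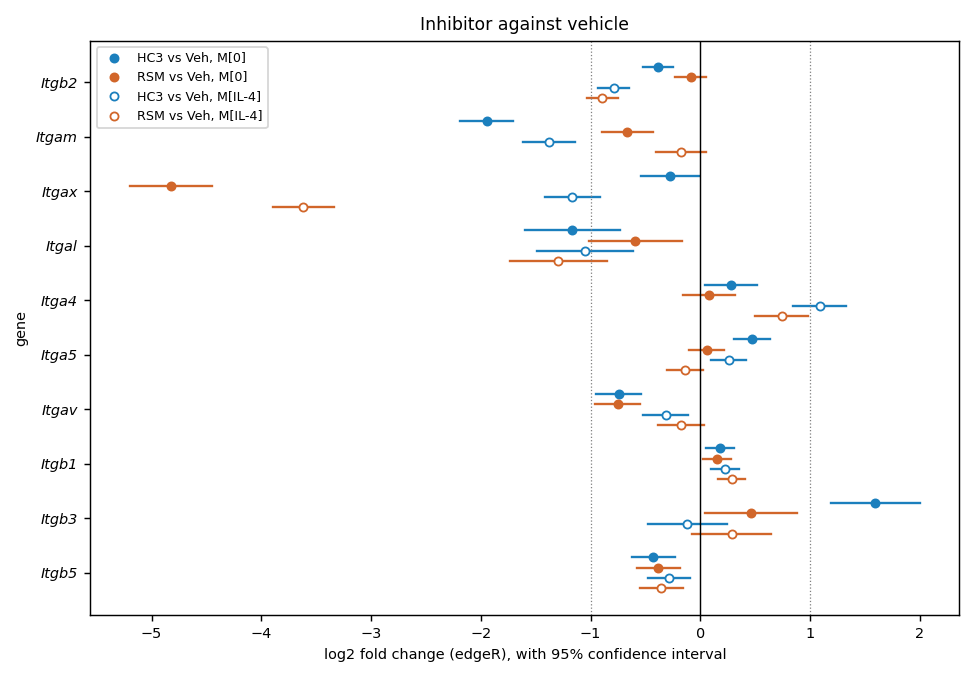
Log2 fold change (x axis) of each integrin gene (y axis) for HC3 (blue) or RSM (orange) against Veh in M[0] (filled) and M[IL-4] (open), with 95% confidence intervals from edgeR as bars; dotted lines mark a 2-fold change. Itgax fell furthest, at -4.82 and -3.62 with RSM, whereas the values of Itgb1 lay between 0.15 and 0.28.

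Among the beta-2 integrin genes, Itgb2 (chr10:77530252-77565708, plus strand, GRCm38 as for all positions here), the shared beta chain, held 814, 906 and 843 CPM in M[0] with Veh, 633, 683 and 647 with HC3 and 745, 826 and 839 with RSM. After IL-4 its libraries held 1458, 1616 and 1482 CPM in Veh, 866, 930.2 and 838 in HC3 and 786, 860.3 and 808 in RSM. The Veh M[IL-4] libraries stood above all 15 others, and every HC3 M[0] library lay below every Veh M[0] library, while RSM M[0] and Veh M[0] overlapped. Itgb2 fell with HC3 in M[0] (log2 fold change -0.38 ± 0.0662 (SE), adjusted p = 0.000108), and in M[IL-4] with both HC3 (-0.79 ± 0.0664 (SE), adjusted p = 2.05e-08) and RSM (-0.89 ± 0.0665 (SE), adjusted p = 3.88e-09). With RSM in M[0] the value was -0.089, with a 95% interval of -0.23 to 0.05 and adjusted p = 0.304 by edgeR. None of these changes reached 2-fold.

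Itgam (chr7:128062640-128118491, plus strand), the alpha chain of complement receptor 3, fell most with HC3 of the 10 genes. Its libraries held 261, 249.8 and 237 CPM in M[0] with Veh, 73.4, 64.2 and 56.7 with HC3 and 175, 145 and 152 with RSM. In the M[IL-4] libraries it stood at 155, 187 and 172 CPM in Veh, 60.2, 74.3 and 63.0 in HC3 and 129.7, 173 and 152 in RSM. The 6 HC3 libraries lay below the other 12 at either polarization state, and RSM M[0] lay between Veh M[0] and HC3 M[0] with no overlap. HC3 lowered Itgam 3.85-fold in M[0] (log2 fold change -1.95 ± 0.115 (SE), adjusted p = 1.23e-10) and 2.60-fold in M[IL-4] (-1.38 ± 0.114 (SE), adjusted p = 1.68e-08). RSM lowered it 1.58-fold in M[0] (-0.66 ± 0.11 (SE), adjusted p = 7.77e-05). Its value with RSM in M[IL-4] was -0.18 (adjusted p = 0.224 by edgeR, or 0.00504 with the replicate number as a block within each polarization state). Shared exons do not affect a comparison of Itgam with itself unless reads were divided differently between groups, which was not tested.

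Itgax (chr7:128129547-128150657, plus strand), the alpha chain of complement receptor 4, gave the widest range and the largest response to RSM of the 10 genes. Its libraries held 63.0, 62.7 and 57.2 CPM in M[0] with Veh, 57.0, 50.9 and 43.5 with HC3 and 2.88, 2.20 and 1.39 with RSM, the last from 54, 42 and 27 counts. The M[IL-4] libraries held 1021, 1274 and 1031 CPM in Veh, 476, 555 and 450.1 in HC3 and 87.0, 99.7 and 84.0 in RSM. No 2 of the 6 groups overlapped, although the nearest libraries of Veh M[0] and HC3 M[0] were 57.2 and 57.0 CPM. RSM lowered Itgax 28.3-fold in M[0] (log2 fold change -4.82 ± 0.178 (SE), adjusted p = 3.36e-13) and 12.3-fold in M[IL-4] (-3.62 ± 0.132 (SE), adjusted p = 4.14e-13). HC3 lowered it 2.25-fold in M[IL-4] (-1.17 ± 0.12 (SE), adjusted p = 2.86e-07). In M[0] the value with HC3 was -0.27 (adjusted p = 0.0887 by edgeR, or 0.000308 with the replicate block within polarization states).

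Itgax also marks dendritic cells, and of the 10 dendritic cell markers, Flt3, Cd209a, Xcr1, Clec9a, Ccr7, Dpp4 and Siglech stayed at or below 0.538 CPM in every library. The summed level of that list was 5.75 to 7.93 CPM in Veh M[0] and 24.9 to 31.6 in Veh M[IL-4], of which Batf3 made up 20.6 to 28.1 CPM, and 3.98 to 5.6 in RSM M[IL-4]. HC3 M[0] held 13.1 to 19.6, RSM M[0] 3.49 to 4.81 and HC3 M[IL-4] 10.7 to 15.3 CPM. The 3 tested dendritic cell markers did not move together. Batf3 fell in all 4 comparisons with Veh (highest adjusted p = 0.0285 by edgeR), Kit, at up to 18.1 CPM, rose with HC3 in M[0] (log2 fold change 1.94) and M[IL-4] (1.27) and stood at -0.38 and -0.93 with RSM (adjusted p = 0.333 and 0.0555), and Zbtb46 passed in none. Of the 9 osteoclast or cell fusion markers, Calcr was at 0 in every library and 7 were tested. By the adjusted p, 1 rose and 3 fell with HC3 and 1 rose and 6 fell with RSM in M[0], and 1 rose and 3 fell with HC3 and 1 rose and 5 fell with RSM in M[IL-4]. Of all tested genes, 44.1%, 41.1%, 38.8% and 38.6% passed in these 4 comparisons, in that order. The osteoclast marker that rose was Ctsk in each case, at 1.07 and 1.41 on the log2 scale in M[0], with 0.44 and 0.41 after IL-4. Ocstamp and Dcstamp, which encode membrane proteins of cell fusion, were singled out after their values were seen. Ocstamp held 46.1 to 66.0 CPM in Veh M[IL-4], 10.9 to 12.7 in HC3 M[IL-4] and 1.56 to 1.94 in RSM M[IL-4], and 0 in all RSM M[0] libraries, and Dcstamp held 48.9 to 116, 8.32 to 16.0 and 2.02 to 2.80 CPM in those M[IL-4] groups. The summed osteoclast list ran from 271 to 331 CPM in Veh M[0], 270 to 364 in HC3 M[0], 150 to 161 in RSM M[0], 954 to 1363 in Veh M[IL-4], 811 to 1090 in HC3 M[IL-4] and 579 to 721 in RSM M[IL-4]. Within the osteoclast list Atp6v0d2 ranged most, with group means from 53.5 to 896 CPM. The part of these cells or genes in the Itgax values was not tested.

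Itgal (chr7:127296260-127335138, plus strand), the alpha chain of LFA-1, held 182, 144 and 174 CPM in M[0] with Veh, 76.8, 70.7 and 75.2 with HC3 and 94.7, 124 and 112 with RSM. In M[IL-4] its level was 143, 61.5 and 84.1 CPM in Veh, 45.1, 48.4 and 46.2 in HC3 and 31.5, 47.0 and 39.4 in RSM. Every inhibitor library lay below every Veh library of its polarization state, but replicate 1 of Veh M[IL-4] was far above its 2 companions. Itgal fell with HC3 in M[0] (log2 fold change -1.17 ± 0.205 (SE), adjusted p = 0.000131) and in M[IL-4] (-1.05 ± 0.209 (SE), adjusted p = 0.000527), and with RSM in M[0] (-0.59 ± 0.201 (SE), adjusted p = 0.0239) and in M[IL-4] (-1.30 ± 0.211 (SE), adjusted p = 6.67e-05). Without Veh M[IL-4] replicate 1 the M[IL-4] values were -0.64 for HC3 and -0.89 for RSM, under 2-fold, with adjusted p = 0.00324 and 0.000182 by edgeR. The fall with RSM in M[0] did not pass without Veh M[0] replicate 1 or 3 or without RSM M[0] replicate 1 or 3 (adjusted p = 0.0557 to 0.104 by edgeR).

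The 3 alpha partners of beta-2 therefore moved apart from each other. Taken as shares of their summed CPM per kb, Itgam held 56.6% ± 1.86 (SD, n = 3), Itgal 28.9% ± 2.67 and Itgax 14.5% ± 0.808 in Veh M[0]. In Veh M[IL-4], Itgax held 82.4% ± 2.5 and Itgam 12.2% ± 0.748. HC3 left Itgax at 83.5% ± 0.724 in M[IL-4], inside the range of Veh M[IL-4], although the level of each chain was lower. In RSM M[IL-4], Itgam held 54.8% ± 1.68 and Itgax 34.4% ± 2.47, and in M[0] Itgax held 30.2% ± 1.49 with HC3 and 0.919% ± 0.298 with RSM. These shares rest on full exon lengths. With the length of Itgam cut to the 1574 bp it does not share with Gm49368, the share of Itgax became 6.46% ± 0.241 in Veh M[0], 65.0% ± 2.11 in Veh M[IL-4] and 15.6% ± 1.39 in RSM M[IL-4]. The share of Itgam became 80.6% ± 1.17, 30.7% ± 1.48 and 79.5% ± 1.11 in these groups, in that order. Itgad, the fourth alpha partner, added at most 0.475% in any library.

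On full exon lengths the summed level of the 3 alpha chains was 87.7 ± 4.39 CPM per kb in M[0] with Veh, 34.7 ± 3.23 with HC3 and 48.5 ± 1.24 with RSM. With IL-4 it was 279.6 ± 27.9 CPM per kb in Veh, 123 ± 12.9 in HC3 and 54.9 ± 6.89 in RSM. Transcripts of the beta-2 chain thus outnumbered those of its 3 partners per length in every group, by 3.20 ± 0.316 times in Veh M[0], 6.22 ± 0.683 in HC3 M[0], 5.43 ± 0.476 in RSM M[0], 1.78 ± 0.0793 in Veh M[IL-4], 2.35 ± 0.116 in HC3 M[IL-4] and 4.91 ± 0.381 in RSM M[IL-4] (SD, n = 3). With the length of Itgam cut as above, the ratios were 1.43 ± 0.124, 3.44 ± 0.423 and 2.26 ± 0.285 in M[0] with Veh, HC3 and RSM and 1.41 ± 0.0527, 1.90 ± 0.0965 and 2.23 ± 0.2 in M[IL-4], so that the ranges of Veh M[0] and Veh M[IL-4] then overlapped.

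**Figure D3:**
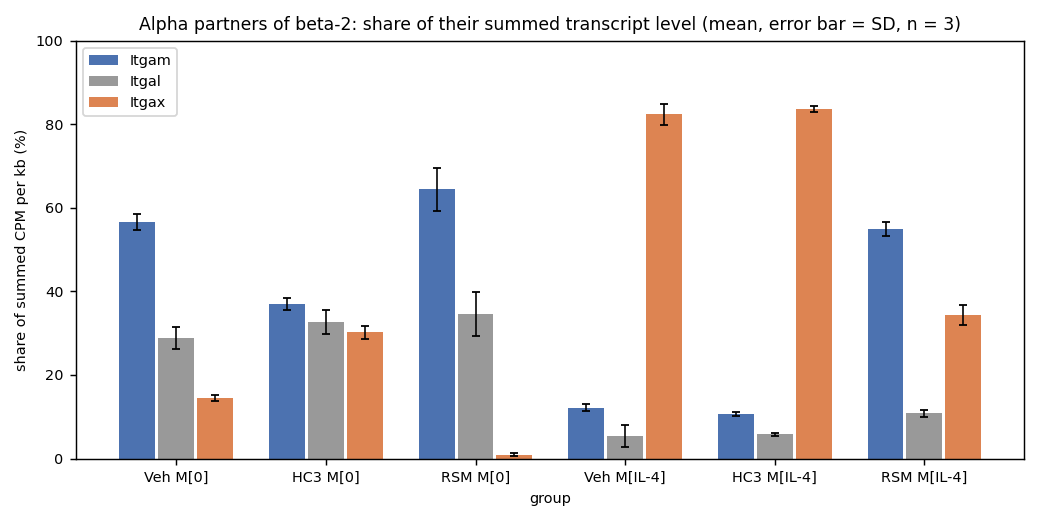
Share (y axis, %) of Itgam, Itgal and Itgax in the sum of their CPM per kb in each group (x axis), with bars at the mean and error bars at the SD (n = 3). Itgax held 82.4% in Veh M[IL-4] and 83.5% in HC3 M[IL-4] but 34.4% in RSM M[IL-4], where Itgam held 54.8%. Full exon lengths were used. With Itgam cut to the 1574 bp not shared with Gm49368, Itgax held 65.0%, 67.7% and 15.6% in these groups, and Itgam 79.5% in RSM M[IL-4].

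Among the genes of the fibronectin and vascular cell adhesion molecule receptors, Itga4 (chr2:79255426-79333123, plus strand) held 208, 176 and 169 CPM in M[0] with Veh, 219.6, 236 and 215 with HC3 and 181, 215 and 189 with RSM. After IL-4 its libraries held 85.6, 99.2 and 83.3 CPM in Veh, 164, 204 and 202 in HC3 and 123, 164 and 160.2 in RSM. The Veh M[IL-4] libraries stood below all 15 others. Itga4 rose with HC3 in M[IL-4] 2.12-fold (log2 fold change 1.09 ± 0.115 (SE), adjusted p = 4.25e-07) and with RSM 1.67-fold (0.74 ± 0.115 (SE), adjusted p = 3.92e-05). In M[0] the values were 0.28 with HC3 (adjusted p = 0.0524 by edgeR, or 0.00154 with the replicate block within polarization states) and 0.08 with RSM (adjusted p = 0.612). Exons of Cerkl on the opposite strand cover 8.04% of the exon length of Itga4, and whether counting used strand is not stated in the sources used here, which bears on every overlap with an opposite strand given here.

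Itga5 (chr15:103344286-103366763, minus strand), the alpha chain of the classical fibronectin receptor, held 212, 206 and 225 CPM in M[0] with Veh, 302, 269.6 and 318 with HC3 and 223, 209.6 and 237 with RSM. In the M[IL-4] libraries it stood at 230.4, 192 and 197 CPM in Veh, 253, 233 and 254 in HC3 and 193, 179 and 190.0 in RSM. Only the HC3 groups stood above their Veh group without overlap. Itga5 rose with HC3 in M[0] (log2 fold change 0.47 ± 0.076 (SE), adjusted p = 5.52e-05) and in M[IL-4] (0.26 ± 0.0761 (SE), adjusted p = 0.0112, which became 0.0587 without Veh M[IL-4] replicate 2 and 0.0537 without replicate 3). With RSM the values were 0.06 in M[0] (adjusted p = 0.569 by edgeR) and -0.14 in M[IL-4] (adjusted p = 0.161, or 0.0171 with the replicate block within polarization states).

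Itgb1 (chr8:128685654-128733200, plus strand), the beta chain shared by both receptors, was the steadiest of the beta chains, with its 18 libraries between 905 and 1217 CPM. It rose with HC3 in M[0] (log2 fold change 0.18 ± 0.0601 (SE), adjusted p = 0.0225) and with HC3 (0.22 ± 0.0602 (SE), adjusted p = 0.00604) and RSM (0.28 ± 0.0602 (SE), adjusted p = 0.000883) in M[IL-4]. With RSM in M[0] its value was 0.15 (adjusted p = 0.0537 by edgeR, or 0.00228 with the replicate block within polarization states). All 3 libraries of each inhibitor group lay above all 3 of Veh at both polarization states. The rise with HC3 in M[0] did not pass without Veh M[0] replicate 2 or 3 or without HC3 M[0] replicate 1 or 2 (adjusted p = 0.0756 to 0.11 by edgeR), or in a fit of the compared groups alone (0.0803) or without the count filter (0.0801).

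Of the vitronectin receptor genes, Itgav (chr2:83724397-83806916, plus strand) held 325, 279.9 and 327 CPM in M[0] with Veh, 201, 169 and 186 with HC3 and 190.1, 176 and 187 with RSM. The M[IL-4] libraries held 220.3, 171 and 165 CPM in Veh, 139, 152 and 155 in HC3 and 151, 175 and 167 in RSM. Veh M[0] stood above all 15 other libraries. Itgav fell in M[0] by nearly the same amount with HC3 (log2 fold change -0.75 ± 0.098 (SE), adjusted p = 5.14e-06) and RSM (-0.75 ± 0.0981 (SE), adjusted p = 4.84e-06). In M[IL-4] it fell with HC3 (-0.32 ± 0.0984 (SE), adjusted p = 0.0152), which did not pass without Veh M[IL-4] replicate 1 (adjusted p = 0.137 by edgeR) or HC3 M[IL-4] replicate 1 (adjusted p = 0.0673), nor in a fit of the compared groups alone (0.0597) or with scaling by library size alone (0.0505). With RSM in M[IL-4] its value was -0.18 (adjusted p = 0.172). The processed transcript Gm13684 on the opposite strand covers 5.9% of the exon length of Itgav.

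Itgb3 (chr11:104608000-104670476, plus strand), the beta chain of the alpha-v beta-3 receptor that osteoclasts also use, held 14.3, 16.9 and 12.1 CPM in M[0] with Veh, 36.1, 58.7 and 35.4 with HC3 and 18.3, 22.5 and 18.7 with RSM. In M[IL-4] its level was 86.1, 106 and 93.1 CPM in Veh, 75.3, 109.5 and 77.9 in HC3 and 103, 131 and 114 in RSM. In M[0] the HC3 libraries stood above the rest, and in M[IL-4] the ranges of the 3 treatments ran into each other. Itgb3 rose 3.02-fold with HC3 in M[0] (log2 fold change 1.59 ± 0.194 (SE), adjusted p = 2.03e-06). The other values were 0.46 with RSM in M[0] (adjusted p = 0.0732 by edgeR, or 0.000263 with the replicate block within polarization states), -0.12 with HC3 in M[IL-4] (adjusted p = 0.629) and 0.29 with RSM in M[IL-4] (adjusted p = 0.205, or 0.00131 with the block).

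Itgb5 (chr16:33829665-33949338, plus strand), another beta partner of alpha-v, held 499.9, 529.8 and 585 CPM in M[0] with Veh, 383, 392 and 424 with HC3 and 384, 427 and 428 with RSM. After IL-4 its libraries held 585, 437 and 472 CPM in Veh, 435, 379 and 412 in HC3 and 417, 379.8 and 371 in RSM. Each inhibitor group lay below its Veh group. It fell in all 4 comparisons by a similar step, at -0.43 ± 0.093 (SE), adjusted p = 0.000975 with HC3 and -0.38 ± 0.093 (SE), adjusted p = 0.00274 with RSM in M[0], and at -0.29 ± 0.093 (SE), adjusted p = 0.0203 with HC3 and -0.36 ± 0.093 (SE), adjusted p = 0.0049 with RSM in M[IL-4]. The M[IL-4] fall with HC3 did not pass without Veh M[IL-4] replicate 1 (adjusted p = 0.196 by edgeR) or HC3 M[IL-4] replicate 2 (adjusted p = 0.0867), nor in a fit of the compared groups alone (0.0869) or with scaling by library size alone (0.078). A stretch of 343 bp of Itgb5 matches the processed pseudogene Gm38317 at 99.7% identity.

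IL-4 was compared with M[0] under each treatment to ask which integrin genes answer the cytokine and whether the inhibitors alter that answer. With Veh, 3 of the 10 genes changed at least 2-fold against 6.66% of tested genes, with Itgax and Itgb3 higher (2.83%) and Itga4 lower (3.83%). With HC3, 2 changed against 3.97%, Itgax and Itgb3, both higher (1.82%). With RSM, 3 changed against 4.26%, with Itgax and Itgb3 higher (2.45%) and Itgal lower (1.81%). On the adjusted p alone, 3 rose (background 16.1%) and 4 fell (14.9%) with Veh, where 31% of tested genes passed. With HC3 3 rose (7.22%) and 3 fell (7.48%, 14.7% in all), and with RSM 2 rose (8.79%) and 3 fell (6.74%, 15.5% in all). Under each treatment 7 of the 10 had no overlap of libraries, against 40.8% of tested genes with Veh, 30.5% with HC3 and 31.7% with RSM. The median log2 fold change of the 10 was -0.083, 0.028 and -0.070, beside -0.0078, -0.0079 and 0.0014 over all tested genes. Itgax rose 18.2-fold with Veh (log2 fold change 4.18 ± 0.136 (SE), adjusted p = 9.92e-14), 9.78-fold with HC3 (3.29 ± 0.132 (SE), adjusted p = 3e-12) and 41.9-fold with RSM (5.39 ± 0.177 (SE), adjusted p = 1.01e-13). Itgax thus answered IL-4 under every treatment, although its RSM M[IL-4] libraries (84.0 to 99.7 CPM) stood far below those of Veh M[IL-4]. They lay above those of Veh M[0] (57.2 to 63.0 CPM).

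Itgb3 rose 6.60-fold with Veh (2.72 ± 0.194 (SE), adjusted p = 3.88e-09), 2.02-fold with HC3 (1.01 ± 0.177 (SE), adjusted p = 0.000497) and 5.83-fold with RSM (2.54 ± 0.188 (SE), adjusted p = 9.13e-09). Its rise under HC3 lay just past 2-fold and dropped under it without HC3 M[0] replicate 1 (0.89) or 3 (0.88) or HC3 M[IL-4] replicate 2 (0.82), and with scaling by library size alone (0.96). Itgb2 rose with Veh (0.83 ± 0.0665 (SE), adjusted p = 1.80e-08) and HC3 (0.42 ± 0.0662 (SE), adjusted p = 0.000157), and its value with RSM was 0.027 (95% interval -0.11 to 0.17, adjusted p = 0.86 by edgeR). Itga4 fell with Veh (-1.05 ± 0.115 (SE), adjusted p = 1.09e-06) and RSM (-0.39 ± 0.113 (SE), adjusted p = 0.0244), and its value with HC3 was -0.24 (adjusted p = 0.182). The fall with Veh was under 2-fold without Veh M[0] replicate 1 (-0.95) and without Veh M[IL-4] replicate 3 (-0.998), and the fall with RSM did not pass without RSM M[0] replicate 2 (adjusted p = 0.114) or RSM M[IL-4] replicate 1 (adjusted p = 0.116).

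Itgal fell with IL-4 under Veh (-0.79 ± 0.203 (SE), adjusted p = 0.00576), HC3 (-0.67 ± 0.209 (SE), adjusted p = 0.0366) and RSM (-1.49 ± 0.211 (SE), adjusted p = 3.97e-05). Without Veh M[IL-4] replicate 1 its fall under Veh was -1.21, past 2-fold, and its fall under HC3 did not pass when any 1 of the 6 HC3 libraries was left out (adjusted p from 0.0678 to 0.0964 by edgeR). Itgam fell under Veh (-0.54 ± 0.11 (SE), adjusted p = 0.000926) and had values of 0.024 under HC3 and -0.054 under RSM (adjusted p = 0.93 and 0.825). Itgav fell under Veh (-0.74 ± 0.0981 (SE), adjusted p = 1.02e-05) and HC3 (-0.32 ± 0.0984 (SE), adjusted p = 0.0367) and stood at -0.17 under RSM (adjusted p = 0.307). The Itgav fall under HC3 did not pass when any HC3 library but M[0] replicate 2 was left out (adjusted p from 0.0557 to 0.155) or when mitochondrial genes were left out (0.0518). Itga5 fell under HC3 (-0.27 ± 0.0758 (SE), adjusted p = 0.0232) and RSM (-0.25 ± 0.0762 (SE), adjusted p = 0.0291), with -0.054 under Veh (adjusted p = 0.64). Leaving out HC3 M[0] replicate 1 or 3 or HC3 M[IL-4] replicate 2 took the first above the threshold (adjusted p up to 0.119), as leaving out RSM M[0] replicate 1 or 3 or RSM M[IL-4] replicate 2 or 3 did the second (up to 0.13). Itgb1 and Itgb5 did not pass under any treatment in this fit, with values from -0.11 to 0.18 (lowest adjusted p = 0.051, for Itgb1 under RSM). Itgb1 under RSM did pass with DESeq2 (adjusted p = 0.0272) and with another count filter (0.0497 by edgeR). Itgb5 under Veh passed without Veh M[IL-4] replicate 1 (-0.26, adjusted p = 0.0295 by edgeR).

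**Figure D4:**
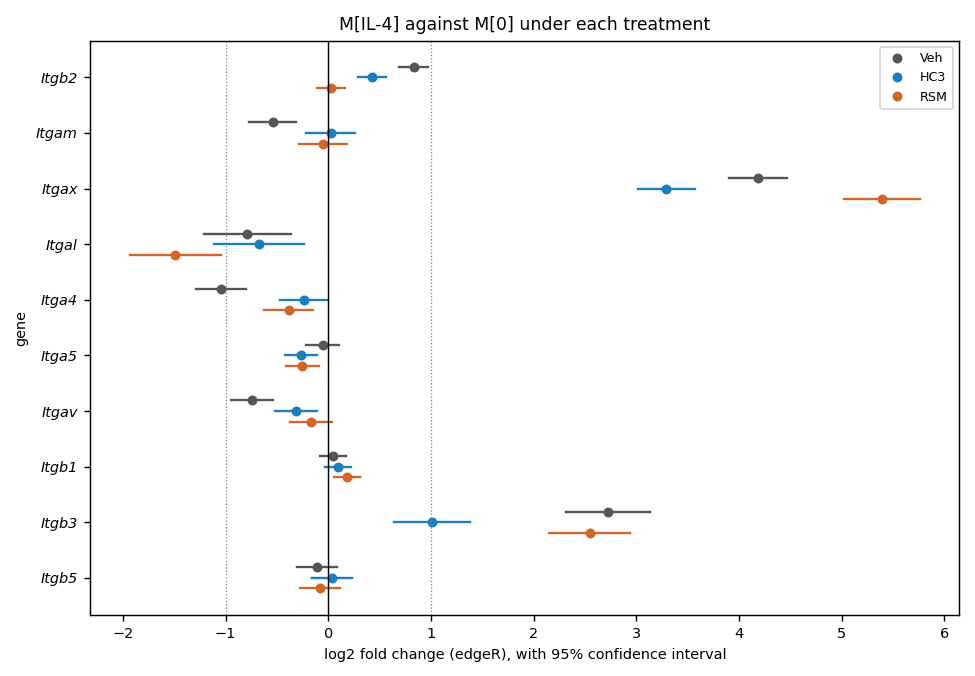
Log2 fold change of M[IL-4] over M[0] (x axis) for each integrin gene (y axis) under Veh (grey), HC3 (blue) and RSM (orange), with 95% confidence intervals from edgeR as bars; dotted lines mark a 2-fold change. Itgax lay at 4.18, 3.29 and 5.39 and Itgb3 at 2.72, 1.01 and 2.54, and the others between -1.49 and 0.83.

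Whether the response to IL-4 differed between an inhibitor and Veh was tested as an interaction, the log2 fold change of IL-4 with the inhibitor minus that with Veh. At least a 2-fold difference was found for 1 of the 10 genes with HC3, Itgb3 (1.24% of tested genes, 0.761% with a difference below 0), and for 1 with RSM, Itgax (2.14%, 1.22% with a difference above 0). On the adjusted p alone 5 genes passed with HC3 (6.48% of tested genes), 2 of them above Veh (3.08%) and 3 below (3.4%), and 4 with RSM (9.19%), 3 above (5.05%) and 1 below (4.14%). The response of Itgb3 was smaller with HC3 (-1.71 ± 0.259 (SE), adjusted p = 0.000475), and so was that of Itgax (-0.89 ± 0.173 (SE), adjusted p = 0.00354). The response of Itgax was larger with RSM (1.20 ± 0.229 (SE), adjusted p = 0.00204), from 1.39 to 2.88 CPM in RSM M[0], and this difference was 0.97 without RSM M[0] replicate 3. The log2 fold change of Itgb2 with IL-4 was lower than under Veh with HC3 (-0.41 ± 0.0935 (SE), adjusted p = 0.0125) and RSM (-0.80 ± 0.0936 (SE), adjusted p = 2.04e-05), and that of Itga4 was higher with HC3 (0.81 ± 0.16 (SE), adjusted p = 0.00431) and RSM (0.66 ± 0.16 (SE), adjusted p = 0.0126). That of Itgam, a fall under Veh and 0.024 under HC3, was higher with HC3 (0.57 ± 0.159 (SE), adjusted p = 0.0393), which did not pass in 9 of 12 fits that left out 1 library (adjusted p up to 0.111). Its value with RSM was 0.49 (adjusted p = 0.0586, or 2.22e-05 with the replicate block within polarization states). That of Itgav was higher with RSM (0.58 ± 0.138 (SE), adjusted p = 0.0115), with 0.43 for HC3 (adjusted p = 0.0747, or 0.00623 with that block). With that block Itga5 also passed with HC3 (-0.21, adjusted p = 0.291 without and 0.0284 with it) and RSM (-0.20, 0.308 and 0.0369).

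The inhibitors were then set against each other, 250 µM HC3 and 5 µM RSM for the same time, in 10 genes at 2 polarization states. Their doses differ and were not matched for potency. In M[0], 3 genes differed at least 2-fold (3.04% of tested genes), 2 higher with HC3 (1.61%) and 1 lower (1.44%), and 7 had no overlap of libraries (31.6%). In M[IL-4] 2 differed (2.8%), 1 higher (1.21%) and 1 lower (1.59%), and 3 had no overlap (28.5%). The adjusted p alone was passed in M[0] by 5 of 10 (13.6% of tested genes), 3 of them higher with HC3 (6.18%) and 2 lower (7.43%). In M[IL-4] it was passed by 4 (13%), 3 higher (4.97%) and 1 lower (8.03%). The median difference of the 10 genes was 0.018 and 0.086 on the log2 scale, beside 0.017 and 0.0027 over all tested genes. Itgax was higher with HC3 than with RSM by 23.4-fold in M[0] (log2 difference 4.55 ± 0.179 (SE), adjusted p = 8.59e-12) and 5.47-fold in M[IL-4] (2.45 ± 0.126 (SE), adjusted p = 1.98e-10). Itgam was lower with HC3 by 2.43-fold in M[0] (-1.28 ± 0.114 (SE), adjusted p = 2.84e-07) and 2.30-fold in M[IL-4] (-1.20 ± 0.114 (SE), adjusted p = 5.66e-07). The pair of neighbouring genes therefore separated the inhibitors in opposite directions.

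Itgb3 was higher with HC3 in M[0] (1.13 ± 0.187 (SE), adjusted p = 0.000356), at 0.83 without HC3 M[0] replicate 2, whose 58.7 CPM were the highest of the M[0] libraries. In M[IL-4] it stood at -0.40 (95% interval -0.76 to -0.045, adjusted p = 0.143 by edgeR, or 5.69e-05 with the replicate block within polarization states). Itga5 was higher with HC3 in M[0] (0.41 ± 0.0759 (SE), adjusted p = 0.000964) and M[IL-4] (0.40 ± 0.0762 (SE), adjusted p = 0.0014), Itgb2 was lower with HC3 in M[0] (-0.30 ± 0.0662 (SE), adjusted p = 0.00495) and Itga4 higher in M[IL-4] (0.35 ± 0.113 (SE), adjusted p = 0.0494), the last not passing without RSM M[IL-4] replicate 1 or 3 or HC3 M[IL-4] replicate 2 or 3 (adjusted p up to 0.202) or in a fit of the compared groups alone (0.116). For the rest the 95% interval of the difference was, in M[0], -1.0 to -0.14 for Itgal (adjusted p = 0.0739, or 0.0139 with the block), -0.037 to 0.43 for Itga4 (adjusted p = 0.282, or 0.035 with the block), -0.20 to 0.21 for Itgav, -0.098 to 0.15 for Itgb1 and -0.24 to 0.15 for Itgb5. In M[IL-4] it was -0.037 to 0.24 for Itgb2, -0.20 to 0.69 for Itgal, -0.35 to 0.065 for Itgav, -0.19 to 0.066 for Itgb1 and -0.12 to 0.27 for Itgb5.

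Patterns over the 18 libraries were described by Pearson's r of log2 CPM, whose points share the 6 groups, so that genes answering the same treatments score alike. Within the 10 genes the highest r was 0.837, for Itgal with Itgav, and the lowest were -0.878 for Itgb1 with Itgb5 and -0.869 for Itgb2 with Itga4. Itgam and Itgax, neighbours on the chromosome, gave r = -0.162, and Itgb2 gave 0.608 with Itgax, 0.397 with Itgam and 0.107 with Itgal. Of 10973 genes averaging 50 counts or more, those most like Itgax were Dnmt3a (r = 0.988), Atf3 (r = 0.971) and Dnmt3aos (r = 0.968). Those most like Itgam were Kat2b (r = 0.978), 2610507B11Rik (r = 0.973) and BE692007 (r = 0.971), those most like Itgb2 Dock2 (r = 0.974), Ubash3b (r = 0.973) and Tifab (r = 0.969), and those most like Itgb3 Stt3b (r = 0.966), Bhlhe40 (r = 0.954) and Dusp4 (r = 0.950). For Itgal, Mturn (r = 0.941) and St3gal5 (r = 0.935) are given, for Itgav they were Cdk14 (r = 0.958), Slc16a10 (r = 0.942) and Xylt2 (r = 0.938), and for Itgb5 Tprgl (r = 0.941), Otud1 (r = 0.930) and Arhgap22 (r = 0.928). For Itga4 they were Uhrf2 (r = 0.938), Kif3a (r = 0.937) and Tab2 (r = 0.935), for Itga5 Gadd45g (r = 0.934), Got2 (r = 0.929) and Nbl1 (r = 0.919), and for Itgb1 Patl1 (r = 0.946), Rtraf (r = 0.936) and Uhrf1bp1l (r = 0.935).

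Of 16 other integrin subunit genes, 13 were tested, and Itga2, Itgb4 and Itgb6 were not. At least 2-fold changes were 3 higher and 1 lower with HC3 in M[0], 4 higher and 2 lower with RSM in M[0], 2 higher and 1 lower with HC3 in M[IL-4], and 3 higher and 1 lower with RSM in M[IL-4]. Over all tested genes the shares were, in that order, 5.93% higher and 6.11% lower, 5.05% and 6.51%, 4.72% and 5.53%, and 5.05% and 6%. On the adjusted p alone the counts were 4 and 3, 4 and 3, 2 and 2, and 3 and 1, where 22.6% and 21.5%, 20.5% and 20.7%, 18.9% and 19.9%, and 20.1% and 18.5% of all tested genes passed in each direction. Itgb7, the other beta partner of alpha-4, rose in all 4 comparisons, with log2 fold changes for HC3 and RSM of 1.46 and 1.78 in M[0], with 1.66 and 2.25 in M[IL-4] (highest adjusted p = 2.08e-06 by edgeR). It held 17.2 CPM on average in Veh M[0] and 71.3 in RSM M[IL-4]. Itga9, which binds tenascin and osteopontin with beta-1, fell with HC3 (-1.82 ± 0.165 (SE), adjusted p = 4.60e-08) and RSM (-1.87 ± 0.166 (SE), adjusted p = 3.57e-08) in M[0], and IL-4 lowered it with Veh (-2.24 ± 0.17 (SE), adjusted p = 9.15e-09). In M[IL-4] its values were -0.999 with HC3 (adjusted p = 0.000338) and 0.061 with RSM (adjusted p = 0.821).

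Itga6, a laminin-binding chain and the most abundant of this list by CPM, fell with IL-4 in Veh (-1.46 ± 0.103 (SE), adjusted p = 3.62e-09) and with HC3 (-0.68, adjusted p = 2.17e-05 by edgeR) and RSM (-0.91, adjusted p = 6.96e-07) in M[0]. Its M[IL-4] values were 0.12 and -0.21 (adjusted p = 0.372 and 0.118). The collagen-binding chains Itga1 and Itga11 rose with both inhibitors in M[0], Itga1 at 1.07 (adjusted p = 0.0107) with HC3 and 1.38 (adjusted p = 0.00173) with RSM, and Itga11 at 1.86 (adjusted p = 5.92e-05) and 1.41 (adjusted p = 0.000974). In M[IL-4] Itga11 rose with HC3 (1.27, adjusted p = 0.00816) and RSM (1.73, adjusted p = 0.00057), and Itga1 with RSM (2.14, adjusted p = 2.45e-05), with 0.32 for HC3 (adjusted p = 0.506). Itga11 is a fibroblast integrin, and the summed stromal markers were higher with both inhibitors in M[0] and ran into the range of Veh in M[IL-4], and their part in its rise was not tested. Itgb8, a partner of alpha-v, rose with IL-4 in Veh (3.70 ± 0.338 (SE), adjusted p = 9.93e-08), and in M[IL-4] fell with HC3 (-2.40 ± 0.297 (SE), adjusted p = 3.02e-06) and RSM (-1.90 ± 0.284 (SE), adjusted p = 2.66e-05). It fell also with RSM in M[0] (-2.44, adjusted p = 0.00308), where all M[0] libraries held under 0.5 CPM, and stood at -0.30 with HC3 there (adjusted p = 0.63).

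The rest of that list lay near or under 10 CPM on average. Itga3 had values of 0.91 and 0.69 in M[0], with 0.88 and 0.82 in M[IL-4] for HC3 and RSM, of which the first passed (adjusted p = 0.0441 by edgeR). Itga8 stood at -0.998 and 1.29 in M[0], with 0.10 and 0.77 in M[IL-4], passing in M[0] (adjusted p = 0.0436 and 0.00503). None of the 4 comparisons passed for Itga7 (1.04 and 0.87 in M[0], with -0.23 and 0.28 in M[IL-4]), Itga10 (-0.12 and -0.35 in M[0], with -0.077 and 0.73 in M[IL-4]), Itga2b (0.32 and -0.31 in M[0], with 0.94 and 0.52 in M[IL-4]), Itgad (-0.25 and -0.38 in M[0], with 0.76 and -0.66 in M[IL-4]) or Itgae (-1.18 and -1.54 in M[0], with -0.018 and -0.83 in M[IL-4]), and these 5 genes held at most 1.27 CPM on average in any group. Exons of Gm42957 cover 33.5% of Itga10 on the same strand.

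Ligands were read from the same libraries, since BMDM make some of them. Of 13 ligand genes of beta-2 integrins 7 were tested, and 1 rose and 1 fell at least 2-fold with each inhibitor in M[0], 3 rose and 2 fell with HC3 in M[IL-4] and 1 rose and 1 fell with RSM in M[IL-4] (of all tested genes, 12%, 11.6%, 10.3% and 11% changed so in these 4 comparisons). Icam1, the intercellular adhesion molecule that LFA-1 and Mac-1 bind, fell with HC3 (-1.33 ± 0.0995 (SE), adjusted p = 3.13e-09) and RSM (-1.06 ± 0.0983 (SE), adjusted p = 6.43e-08) in M[0] and in M[IL-4] (log2 fold changes -1.18 and -0.98, highest adjusted p = 2.74e-07). F11r, a junctional adhesion molecule bound by LFA-1, rose in all 4 comparisons, at 1.26 and 1.69 in M[0], with 2.10 and 3.02 in M[IL-4] (highest adjusted p = 0.00405). Icam5, at most 1.34 CPM in any library, fell in M[IL-4] with HC3 (-3.00) and RSM (-3.08, highest adjusted p = 0.0021) and Jam3 rose with HC3 (1.23, adjusted p = 0.0138), but 26.8% and 36.2% of their exon lengths, and 11.7% of that of Icam1, overlap genes on the opposite strand.

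Of 21 ligand genes of alpha-4, alpha-5 and alpha-v integrins 19 were tested. At least 2-fold changes were 9 higher and 0 lower with HC3 in M[0], 5 and 3 with RSM in M[0], 6 and 0 with HC3 in M[IL-4], and 4 and 1 with RSM in M[IL-4], where 5.93% of all tested genes were higher and 6.11% lower, 5.05% and 6.51%, 4.72% and 5.53%, and 5.05% and 6%. The medians were 0.83, 0.20, 0.72 and 0.57 on the log2 scale, beside 0.023, 0.0053, 0.0063 and 0.019 over all tested genes. On the adjusted p alone 12 rose and 3 fell, 7 rose and 4 fell, 11 rose and 1 fell, and 7 rose and 3 fell, where 44.1%, 41.1%, 38.8% and 38.6% of all tested genes passed. Thbs1, which encodes thrombospondin-1, rose in all 4, at 1.44 and 2.18 in M[0], with 1.36 and 1.78 in M[IL-4] (highest adjusted p = 4.67e-05 by edgeR). Vwf, the von Willebrand factor gene, rose in M[0] with HC3 (1.61, adjusted p = 4.17e-09) and RSM (1.65, adjusted p = 3.49e-09). The matrix gene Ccn2 (2.16 and 1.79) and Tgfb3 (1.77 and 1.66), whose latent protein alpha-v integrins bind, rose with HC3 in M[0] and M[IL-4], and Npnt in M[IL-4] (1.25). With RSM, Mfge8 (-1.10), which bridges apoptotic cells to alpha-v integrins, and Lgals3bp (-1.10) fell in M[0], Edil3 (2.04) and Ccn2 (1.31) rose in M[IL-4] and Ccn3 (-1.98) fell there (highest adjusted p of these = 0.00882). The summed stromal markers were higher with both inhibitors in M[0], and their part in the ligand values was not tested.

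Of 28 adaptor genes that carry signals to and from integrin tails 27 were tested, and 6 rose and 2 fell at least 2-fold with HC3 in M[0], 2 rose and 1 fell with RSM in M[0], 4 rose with HC3 and 5 with RSM in M[IL-4], beside 12%, 11.6%, 10.3% and 11% of all tested genes in either direction. Counted by the adjusted p, 10 rose and 11 fell, 8 rose and 9 fell, 8 rose and 10 fell, and 7 rose and 11 fell, beside 44.1%, 41.1%, 38.8% and 38.6%. Apbb1ip, which encodes the Rap1 effector RIAM, fell with HC3 in M[0] (-1.12 ± 0.0554 (SE), adjusted p = 1e-11). Fyb, which encodes the T-cell and myeloid adaptor ADAP, fell there too (-1.29, adjusted p = 1.79e-10) and with RSM in M[0] (-1.01, adjusted p = 5.29e-09). Fermt2, the kindlin of adherent non-blood cells, rose in all 4 comparisons (1.67 and 1.08 in M[0], with 1.26 and 1.06 in M[IL-4], highest adjusted p = 0.00578), as did Tln2, the second talin gene (1.20 and 1.10 in M[0], with 1.41 and 1.34 in M[IL-4], highest adjusted p = 0.00138). Lims2 (2.14 and 0.91 in M[0], with 1.29 and 1.21 in M[IL-4], highest adjusted p = 0.0314) and Lims1 (0.70 and 0.42 in M[0], with 1.01 and 0.61 in M[IL-4], highest adjusted p = 0.000218) also rose in all 4, and Cyth1 (1.07) and Parvg (1.06) with RSM in M[IL-4]. As the summed stromal markers were higher with both inhibitors in M[0] and ran into the range of Veh in M[IL-4], they may bear on these rises. Their part in the adaptor values was not tested.

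Fermt3, the kindlin of blood cells, and Tln1, the main talin of blood cells, were outside the naming rule and were looked up afterwards. Fermt3 fell in all 4 comparisons (-0.91 and -0.51 in M[0], with -0.72 and -0.35 in M[IL-4], highest adjusted p = 0.00178 by edgeR), and Tln1 did so too (-0.30 and -0.40 in M[0], with -0.40 and -0.52 in M[IL-4], highest adjusted p = 0.00165). Of 10 genes for integrin inactivators all were tested, and by the adjusted p alone 3 rose and 3 fell with HC3 and 1 rose and 3 fell with RSM in M[0], while 2 rose and 2 fell with HC3 and 3 rose and 2 fell with RSM in M[IL-4] (44.1%, 41.1%, 38.8% and 38.6% of all tested genes passed). Among 18 surface partners, all tested, 1 rose and 3 fell at least 2-fold with HC3 in M[0], 2 rose and 1 fell with RSM in M[0], and 1 rose and 1 fell with each inhibitor in M[IL-4], where 12%, 11.6%, 10.3% and 11% of all tested genes did. Slc3a2, the CD98 heavy chain that binds beta tails, rose in all 4 (1.45 and 1.20 in M[0], with 1.38 and 1.10 in M[IL-4], highest adjusted p = 1.49e-09). Sdc4, a syndecan that acts with alpha-5 beta-1, fell with HC3 (-1.24) and RSM (-1.09) in M[0] and HC3 in M[IL-4] (-1.17). Mertk (-1.33) and Fcgr3 (-1.08) fell with HC3 in M[0], Plaur, the urokinase receptor, rose with RSM in M[0] (1.15), and the tetraspanin gene Cd9 fell with RSM in M[IL-4] (-1.02, highest adjusted p of these = 5.18e-06).

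All 16 transcription factor genes with a known tie to myeloid integrin genes were tested, and 1 rose and 1 fell at least 2-fold with HC3 in M[0], 3 rose and 1 fell with RSM in M[0], 1 rose and 1 fell with HC3 and 2 rose and 1 fell with RSM in M[IL-4] (12%, 11.6%, 10.3% and 11% of all tested genes). Counted by the adjusted p alone, 3 rose and 6 fell, 4 rose and 6 fell, 4 rose and 6 fell, and 5 rose and 6 fell (44.1%, 41.1%, 38.8% and 38.6% of all tested genes). Klf4 rose in all 4 comparisons (2.84 and 3.00 in M[0], with 1.07 and 1.25 in M[IL-4], highest adjusted p = 5.33e-09 by edgeR), and Irf4 fell in all 4 (-1.79 and -1.36 in M[0], with -2.28 and -2.45 in M[IL-4], highest adjusted p = 0.000124). Runx3 (1.17, adjusted p = 0.000629) and Cebpb (1.01, adjusted p = 0.0129, with 20.7% of its exon length overlapped by a gene on the opposite strand) rose with RSM in M[0], and Ets2 with RSM in M[IL-4] (1.08, adjusted p = 5.31e-09). Spi1, which encodes PU.1 and was looked up because of the letters printed above, fell in all 4 by less than 2-fold (-0.55 and -0.43 in M[0], with -0.39 and -0.27 in M[IL-4], highest adjusted p = 0.0191).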

How the data were processed

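Poly-A RNA of 18 BMDM libraries (6 groups of 3) was sequenced, and the authors deposited raw counts per gene. Per the submitters' processing notes and the study's methods, reads were trimmed with fastp, aligned with STAR to GRCm38, marked for duplicates with Picard and counted over exons with Subread featureCounts. Versions, annotation release and strand setting are not given in the sources used here. Every sample column was used (0 left unused).

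Genes reaching 10 counts in 2 or more libraries were fitted in 1 model of the 6 groups by edgeR 4.0.16 (TMM scaling, quasi-likelihood test, R 4.3.3, limma 3.58.1), with Benjamini-Hochberg adjustment over all 14979 genes. CPM are scaled by TMM, and log2 CPM carry a prior count of 2. A call needed an adjusted p under 0.05 and a 2-fold change. Depth was 17457796 to 19522255 counts, and a floor of 3 counts covers counting error only. No 2 libraries of a group agreed within sampling noise. The fit of HC3 against Veh in M[0] was tested on simulated data. Figures used Python 3.11.15 with matplotlib 3.10.9, and near-identical copies were sought with blastn 2.17.0.

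Alternatives were DESeq2 1.42.0, library size without TMM, other count filters, mitochondrial genes left out, only the compared groups, each library left out, and the replicate number as a block. Deviations from group means correlated above 0.1 for 18 of 18 same-numbered pairs within a polarization state (0.11 to 0.372) and for 12 of 27 across states (-0.0311 to 0.3). Among pairs with different numbers, they did so for 1 of 36 within a state and for 10 of 54 across states (-0.238 to 0.198). The numbers were taken to pair libraries within a state only, although some pairing across states is possible. The value with this block is given where it changes the side of the threshold within a state or in an interaction.

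The integrin genes and all gene lists were chosen with earlier results of these data known. Named are all 10 integrin genes, up to 4 called genes with the lowest adjusted p of each list in each comparison with Veh, every tested member of the other integrin subunits, the 3 most alike genes of each integrin gene, and defining markers. Some genes that this rule names are not reported here. Fermt3, Tln1 and Spi1 were added after their values were seen.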

Additional observations from a re-analysis of the deposited data

Results flagged for a closer look

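The response to IL-4 differed between an inhibitor and Veh for 6 integrin genes, by the interaction term of the edgeR fit (log2 fold change of IL-4 with the inhibitor minus that with Veh, Benjamini-Hochberg adjusted over all genes). With HC3 the differences were -0.41 for Itgb2 (adjusted p = 0.0125), 0.57 for Itgam (0.0393), -0.89 for Itgax (0.00354), 0.81 for Itga4 (0.00431) and -1.71 for Itgb3 (0.000475). With RSM they were -0.80 for Itgb2 (2.04e-05), 1.20 for Itgax (0.00204), 0.66 for Itga4 (0.0126) and 0.58 for Itgav (0.0115). Itgax thus differed from Veh in opposite directions under the 2 inhibitors. Of all tested genes, 6.48% passed the adjusted p in the HC3 interaction and 9.19% in the RSM interaction. The Itgam value with HC3 did not pass in most fits that left out 1 library (adjusted p up to 0.111 by edgeR). The Itgax value with RSM started from 1.39 to 2.88 CPM in RSM M[0] and was 0.97, under 2-fold, without RSM M[0] replicate 3. Both interactions share the 6 Veh libraries.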

How the results depend on the processing

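Each result was recomputed under 8 other settings and with each library of the compared groups left out. The number of the 10 genes called was the same under the 8 settings in every comparison except IL-4 under HC3, where it was 1 with scaling by library size alone, since Itgb3 then lay under 2-fold. With 1 library left out it ran from 3 to 4 for HC3 and 1 to 2 for RSM in M[IL-4], 2 to 4 for IL-4 under Veh, 1 to 2 for IL-4 under HC3, 2 to 3 for HC3 against RSM in M[0] and 0 to 1 for the RSM interaction, and did not move elsewhere. Direction turned only for values near 0 that did not pass the test. With library size alone these were Itgb1 under Veh (-0.012), Itgam (-0.026) and Itgb5 (-0.016) under HC3 and Itgb2 under RSM (-0.035), all for IL-4. For Itgav, HC3 against RSM in M[0], they were -0.0050 with the compared groups alone, -0.0018 with DESeq2, -0.0052 with library size alone, -0.0054 without the count filter and -0.0025 without mitochondrial genes. With 1 library left out, values ran from -0.011 to 0.18 for Itga4 with RSM in M[0], -0.072 to 0.12 for Itgam and -0.016 to 0.083 for Itgb5 with IL-4 under HC3, -0.032 to 0.053 for Itgb2 and -0.16 to 0.045 for Itgam with IL-4 under RSM, -0.054 to 0.057 for Itgav and -0.013 to 0.070 for Itgb1 for HC3 against RSM in M[0], -0.00018 to 0.087 for Itgb1 and -0.12 to 0.55 for Itgal in the HC3 interaction, and -0.060 to 0.17 for Itgb5 in the RSM interaction. The causes were not tested. The replicate block within polarization states brought 10 values within a state and 4 interactions past the adjusted threshold (for Itgax with HC3 in M[0], adjusted p = 0.000308 by edgeR), took none above it and changed no 2-fold call. It also did so for 2 IL-4 comparisons (Itga4 under HC3, Itgb1 under RSM), but these run between states, where a block nested within states removes replicate spread that belongs to their error, so those passes are not relied on. Over all tested genes, the number called in the HC3 by IL-4 interaction was 186, and 288 with that block. The length of Itgam without exons shared with Gm49368 was chosen after seeing the data. At this depth, values of a few counts per library, as for Itgb8 and Icam5, are imprecise.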
